A study of Homo sapiens with 9 samples.

Results

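Where neighbouring protein-coding genes lie close together, the short stretch between them is bordered by 2 gene ends, and DNA:RNA hybrids there were charted in SH-SY5Y cells. SH-SY5Y is an established human neuroblastoma line. A gap region was defined on chromosomes 1 to 22 and X as the space between adjacent, non-overlapping RefSeq coding gene spans that lay 1 to 1000 bp apart, plus 500 bp into each gene. This gave 2076 gap regions, with 3846 of 19970 coding genes at a gap. Together with 35390 windows of 1500 bp centred on the other ends of coding genes, they made 37466 regions in all. The rule for members uses gene positions and no measured value. The gaps had a median length of 266 bp and ran from 1 to 997 bp. Strand was known for both genes at 769 divergent gaps (2 starts face each other), 387 tandem gaps (an end precedes a start) and 343 convergent gaps (2 ends face each other). The other 577 gap regions had a gene whose strand was not in the promoter table used. Divergent gaps were the shortest, with a median of 171 bp, against 375 bp for convergent and 479 bp for tandem gaps.

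R-loops, the structures in which a new RNA pairs with its template strand and leaves the other DNA strand free, form during transcription. They are known to be common over GC-rich promoters and over 3′ ends, and both kinds of gene end meet at short intergenic gaps. Divergent gene pairs often share a bidirectional, CpG-rich promoter without a TATA box, and many encode housekeeping functions. TDP-43, the product of TARDBP, is an RNA- and DNA-binding protein that regulates splicing and is mislocalised in amyotrophic lateral sclerosis.

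Groups were shTDP43 and shNC, stable SH-SY5Y lines with a lentiviral hairpin against TDP-43 or a negative control hairpin. Both had been selected in 2 µg/mL puromycin for 2 weeks and were kept in 1 µg/mL. Each had 3 DRIP-seq libraries without RNase H, called untreated below, and 1 library digested for 6 h with RNase H, which removes the RNA of hybrids. In all of them DNA was cut with BsrGI, EcoRI, HindIII, SspI and XbaI and hybrids were pulled down with the S9.6 antibody. The labels do not say that replicates came from separate transductions, so p-values measure only the spread between these libraries. TARDBP had no gap region, and peak lists measure neither its transcript nor its protein, so the knockdown was not checked.

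The deposited peak lists held 57204, 69642 and 70016 peaks in shTDP43 replicates 1 to 3, and 73353, 69453 and 70819 in shNC. These covered 91.6, 128.4 and 130.9 Mb in shTDP43, and 142.0, 129.8 and 125.5 Mb in shNC. The lists hold no read totals. The lowest background pileup that could be solved from the peak values, a relative depth, was 1.05, 1.68 and 1.94 in shTDP43 and 2.01, 1.93 and 1.62 in shNC. By this measure replicate 1 of shTDP43 had the least depth of the 6, and it also had the shortest coverage. The RNase H lists held 8868 peaks in shTDP43 and 15504 in shNC, at pileups of 0.991 and 0.936.

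The sequences of 6 divergent gaps are shown because the results below return to them. Each window holds 250 bases before and 50 bases after the start of the gene on the plus strand, from RefSeq (GRCh38.p14, plus strand, 5′ to 3′), and capitals mark the gap between the pair. TFPT and PRPF31, a positive control locus of this assay, were separated by 96 bp. HSPD1 and HSPE1 encode the mitochondrial chaperonin pair. ANGPTL6 and PPAN held the strongest hybrid peak of any divergent gap named here. TUBE1 and FAM229B, and HOMER2 and RAMAC, were covered less in shTDP43. SH3YL1 and ACP1 were covered more in every shTDP43 library.
TFPT and PRPF31, chr19:54115504-54115803: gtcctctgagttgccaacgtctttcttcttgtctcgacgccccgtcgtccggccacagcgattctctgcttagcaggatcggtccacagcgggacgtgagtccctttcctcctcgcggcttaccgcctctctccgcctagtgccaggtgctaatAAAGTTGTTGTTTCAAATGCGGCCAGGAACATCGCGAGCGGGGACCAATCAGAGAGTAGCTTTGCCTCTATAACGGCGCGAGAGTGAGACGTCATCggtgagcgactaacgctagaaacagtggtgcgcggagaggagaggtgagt
HSPD1 and HSPE1, chr2:197500129-197500428: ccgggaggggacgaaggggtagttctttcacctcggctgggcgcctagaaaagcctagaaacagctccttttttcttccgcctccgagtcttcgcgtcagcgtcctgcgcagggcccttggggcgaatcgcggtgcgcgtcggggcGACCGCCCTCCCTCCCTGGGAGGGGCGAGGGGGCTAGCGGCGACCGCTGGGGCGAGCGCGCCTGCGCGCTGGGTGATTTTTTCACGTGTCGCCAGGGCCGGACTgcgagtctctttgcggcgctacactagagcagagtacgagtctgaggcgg
ANGPTL6 and PPAN, chr19:10105973-10106272: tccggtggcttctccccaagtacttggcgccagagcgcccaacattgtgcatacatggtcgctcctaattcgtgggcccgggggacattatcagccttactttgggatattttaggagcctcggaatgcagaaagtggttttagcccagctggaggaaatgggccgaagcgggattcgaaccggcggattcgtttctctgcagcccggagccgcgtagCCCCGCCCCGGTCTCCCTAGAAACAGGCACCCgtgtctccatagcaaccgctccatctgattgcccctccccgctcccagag
TUBE1 and FAM229B, chr6:112087341-112087640: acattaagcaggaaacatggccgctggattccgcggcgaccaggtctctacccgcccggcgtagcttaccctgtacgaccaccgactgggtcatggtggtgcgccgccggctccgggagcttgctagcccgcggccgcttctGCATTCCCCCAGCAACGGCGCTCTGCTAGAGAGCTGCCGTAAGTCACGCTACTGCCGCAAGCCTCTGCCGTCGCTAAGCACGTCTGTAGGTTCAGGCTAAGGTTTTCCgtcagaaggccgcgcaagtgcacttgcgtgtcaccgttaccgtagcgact
HOMER2 and RAMAC, chr15:82985960-82986259: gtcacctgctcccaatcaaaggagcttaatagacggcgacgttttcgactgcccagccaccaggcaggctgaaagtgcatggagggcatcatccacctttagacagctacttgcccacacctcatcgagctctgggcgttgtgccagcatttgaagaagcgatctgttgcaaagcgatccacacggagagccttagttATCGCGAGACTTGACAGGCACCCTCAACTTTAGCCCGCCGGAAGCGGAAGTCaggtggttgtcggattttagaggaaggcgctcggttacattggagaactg
SH3YL1 and ACP1, chr2:264697-264996: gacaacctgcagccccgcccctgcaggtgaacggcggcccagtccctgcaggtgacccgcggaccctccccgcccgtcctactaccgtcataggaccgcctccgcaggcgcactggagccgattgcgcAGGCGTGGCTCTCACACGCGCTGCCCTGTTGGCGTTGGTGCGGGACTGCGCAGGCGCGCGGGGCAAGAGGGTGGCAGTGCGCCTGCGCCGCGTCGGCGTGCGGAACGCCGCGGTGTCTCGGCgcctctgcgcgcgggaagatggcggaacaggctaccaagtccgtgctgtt

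These windows held from 17 CpG at HOMER2 and RAMAC and 21 at ANGPTL6 and PPAN to 39 at SH3YL1 and ACP1. As a class, divergent promoters were richer in CpG than promoters away from gaps. Over the 1556 promoter windows of 300 bases at divergent gaps, the median GC content was 64.7% and the median number of CpG was 27, against 62.3% and 21 in the 13645 promoters away from gaps. CCAAT, the letters bound by NF-Y, was found on either strand in 42.7% of divergent-gap promoters and in 35.7% of the others. CCGGAAG, a core of ETS-family sites, was in 28.5% against 12.2%. TATAAA was in 3.99% against 10.6%. Over all 15811 coding promoters in the table the share was 36.4% for CCAAT, 14.1% for CCGGAAG and 9.75% for TATAAA. None of these motifs contains another, and a match is a description of letters only. Both genes of a divergent gap gave a window. The windows reach 250 bases upstream and divergent gaps had a median of 171 bp, so many overlapped. A match could thus count for both genes, and a window could also hold the partner's start.

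Another 3 windows are shown because their peaks stopped at the same base in every untreated library, here with a cut site of 1 of the protocol's enzymes in capitals (EcoRI GAATTC, HindIII AAGCTT). RNF5 encodes a membrane-bound ubiquitin ligase, MRPL54 a mitochondrial ribosome subunit, and ATPAF1 an assembly factor of the mitochondrial ATP synthase. The ATPAF1 window is given on its minus strand.
AGPAT1 and RNF5, chr6:32178155-32178454: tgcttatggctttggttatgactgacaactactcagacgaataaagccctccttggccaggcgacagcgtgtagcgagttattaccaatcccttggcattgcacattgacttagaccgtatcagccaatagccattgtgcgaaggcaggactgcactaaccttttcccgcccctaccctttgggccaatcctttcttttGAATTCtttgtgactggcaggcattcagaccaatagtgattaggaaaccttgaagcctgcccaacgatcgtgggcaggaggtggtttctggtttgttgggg
APBA3 and MRPL54, chr19:3762432-3762731: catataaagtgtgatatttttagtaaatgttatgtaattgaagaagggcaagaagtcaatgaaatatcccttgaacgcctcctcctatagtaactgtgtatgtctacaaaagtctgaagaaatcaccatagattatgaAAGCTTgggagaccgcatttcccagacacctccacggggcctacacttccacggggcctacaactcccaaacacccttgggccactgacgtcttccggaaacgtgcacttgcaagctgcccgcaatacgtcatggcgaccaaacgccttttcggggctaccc
ATPAF1 and TEX38, chr1:46668508-46668807: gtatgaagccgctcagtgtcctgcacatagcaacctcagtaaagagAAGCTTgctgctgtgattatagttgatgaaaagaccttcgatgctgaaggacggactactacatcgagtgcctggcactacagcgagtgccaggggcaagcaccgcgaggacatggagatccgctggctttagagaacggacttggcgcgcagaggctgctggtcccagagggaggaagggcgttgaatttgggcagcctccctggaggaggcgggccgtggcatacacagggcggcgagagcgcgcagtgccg

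A far larger share of gap regions than of windows at other coding gene ends lay under peaks. The windows were unlike: a gap region is the gap plus 500 bp into each gene, and the others are 1500 bp centred on a single end. On average 55.7%, 66.1% and 66.2% of a gap region lay under peaks in shTDP43, and 68.9%, 68.3% and 65.1% in shNC. At other gene ends it was 23.9%, 30.2% and 30.3% in shTDP43, and 32.1%, 31.2% and 29.6% in shNC. The lowest gap value was thus above the highest value at other ends. Over the 6 untreated libraries the means were 65.1% at gaps and 29.5% at other ends, a difference of 35.5 percentage points that was positive in 6 of 6 libraries (exact sign-flip permutation test, 2-sided, p = 0.031, the smallest that 6 libraries can give). The difference was positive on each of the 23 chromosomes in all 6 libraries, from 22.6 points on chromosome 5 to 44.4 on chromosome 21.

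Most gap regions were either covered in all untreated libraries or in none. A peak was present in all 6 at 1394 regions (67.2%), in 1 to 5 at 329 (15.9%) and in none at 353 (17.0%). The whole region lay under peaks in all 6 libraries at 789 (38.0%), of which 600 had no peak after RNase H in either genotype. The gap itself was spanned from gene to gene by a single peak in 59.0% ± 7.06 of regions in shTDP43 and 64.6% ± 1.73 in shNC (SD, n = 3 each). This bridging held in all 6 libraries for 1016 regions (48.9%) and in none for 601 (29.0%).

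**Figure D1:**
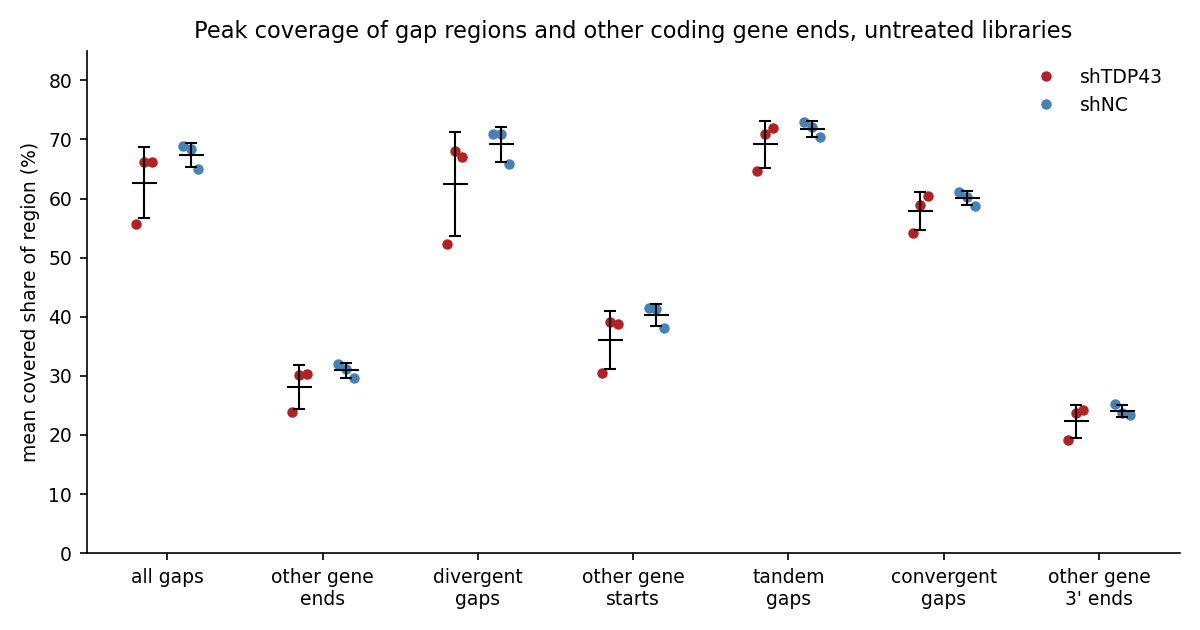
Mean covered share of each region class, in percent, in the 3 shTDP43 and 3 shNC untreated libraries (points, with the mean and SD as bars). Every gap class lies above the other gene starts and 3′ ends, and shTDP43 replicate 1 is the lowest point of each class.

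Over all lengths, tandem gaps were covered more than divergent and convergent ones, and each orientation stood above its own kind of gene end. The orientations differed in gap length and were not matched on it. At gaps of 1 to 100 bp, the 500 bp flanks of the 27 tandem pairs were covered least. They had 52.3% in shTDP43 and 55.3% in shNC. Divergent flanks had 60.1% in shTDP43 and 68.4% in shNC there, and convergent ones 67.1% in shTDP43 and 68.9% in shNC. In each longer class up to 1000 bp, tandem flanks had the highest mean in both genotypes. Divergent gaps were covered over 62.4% ± 8.86 in shTDP43 and 69.2% ± 2.96 in shNC. Tandem gaps were covered over 69.2% ± 3.93 in shTDP43 and 71.8% ± 1.32 in shNC. Convergent gaps were covered over 57.8% ± 3.21 in shTDP43 and 60.1% ± 1.22 in shNC (SD, n = 3 each). The plot of covered share by class shows these values beside those of single gene ends. Over 6 libraries tandem gaps exceeded convergent gaps by 11.5 points and divergent gaps by 4.67 points, each in 6 of 6 libraries (exact sign-flip permutation tests, adjusted p = 0.04688 over 3 pairs). The difference of 6.87 points between divergent and convergent gaps had 5 of 6 libraries on its side and did not pass (exact adjusted p = 0.0625), with shTDP43 replicate 1 on the other. With peaks of a −log10 q of at least 10 only, divergent exceeded convergent gaps by 0.464 points (exact adjusted p = 0.844), and divergent minus tandem was −10.4 points.

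Against single gene ends, the excess was larger where 3′ ends met. Convergent gaps had 59.0% against 23.2% at other 3′ ends, a difference of 35.8 points, and divergent gaps 65.8% against 38.2% at other starts, a difference of 27.6 points. Tandem gaps exceeded the mean of other starts and 3′ ends by 39.8 points. The convergent excess was 8.16 points above the divergent one. Each of these 4 differences was positive in 6 of 6 libraries (exact sign-flip permutation tests, adjusted p = 0.031), and they were chosen after seeing the data. When every peak that touched a peak called after RNase H in the same genotype was left out, the order of divergent and tandem gaps turned round (12.3 points) and so did the order of the 2 excesses (−5.83 points). The excess over other ends was then 22.9 points for all gaps, 18.1 for convergent, 23.9 for divergent and 19.5 for tandem gaps.

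The peaks at the 3 orientations also had different shapes. At divergent gaps coverage was centred on the gap. At the centre 63.9% of them lay under a peak in shTDP43 and 71.0% in shNC, but 2 kb to the right only 27.8% in shTDP43 and 32.1% in shNC. By 10 kb to the right the shares were 25.0% in shTDP43 and 27.1% in shNC. At convergent gaps coverage formed a plateau, with 58.6% in shTDP43 and 60.4% in shNC at the centre and 55.8% in shTDP43 and 60.5% in shNC at 2 kb to the right. Tandem gaps joined both shapes, with their summit in the gap and the start of the downstream gene. There 68.1% in shTDP43 and 71.9% in shNC were covered 1 kb downstream, and 62.4% in shTDP43 and 64.3% in shNC 1 kb upstream. In tandem gaps the 500 bp at the downstream gene's start were covered over 66.5%, 73.6% and 74.6% in shTDP43 and 75.8%, 75.3% and 72.0% in shNC. The 500 bp at the upstream gene's 3′ end had 61.6%, 66.0% and 67.8% in shTDP43 and 69.0%, 67.6% and 66.5% in shNC, less than the start in each library.

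**Figure D2:**
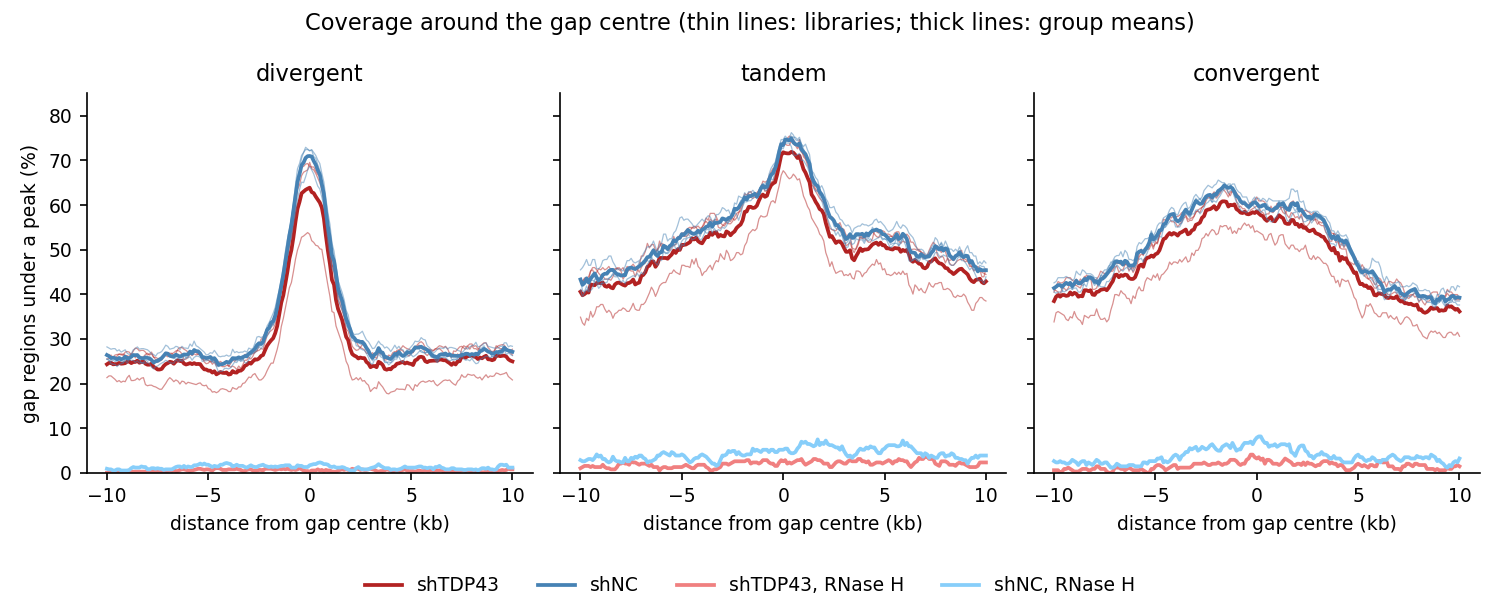
Share of divergent, tandem and convergent gap regions under a peak, in percent, against the distance from the gap centre in kb (tandem pairs run from left to right in the direction of transcription). Divergent gaps show a summit that has dropped below 33% at 2 kb in both genotypes, while convergent gaps stay between 55% and 63% out to 2 kb, and the RNase H lines stay under 10%.

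Peak widths followed the same order. The strongest peak touching a divergent gap region had a median width of 2225, 2568 and 2754 bp in shTDP43 and 2984, 2685 and 2680 bp in shNC. For tandem gaps the medians ran from 5350 to 9144 bp in shTDP43 and from 8082 to 9128 bp in shNC. For convergent gaps they ran from 7585 to 11630 bp in shTDP43 and from 10930 to 11920 bp in shNC. The median over all peaks of a list was 650 to 728 bp in shTDP43 and 694 to 756 bp in shNC. Peaks at gaps were also strong within their lists, by the authors' fold enrichment over background. Their median rank was percentile 91.7 to 93.4 in shTDP43 and 92.8 to 93.6 in shNC, against 86.7 to 88.8 in shTDP43 and 88.4 to 89.3 in shNC at other gene ends. Convergent gaps had the highest median ranks (96.0 to 96.5 in shTDP43, 96.0 to 96.7 in shNC) and divergent gaps the lowest (86.3 to 89.5 in shTDP43, 88.7 to 90.3 in shNC).

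Gene flanks at the longest gaps were covered less than those at gaps up to 1000 bp in all 3 orientations. Coverage of the 500 bp inside each gene was followed over all neighbouring coding genes with increasing gap length. In convergent pairs it was 67.1% ± 1.96 in shTDP43 and 68.9% ± 0.721 in shNC at gaps of 1 to 100 bp. It was 48.7% ± 4.47 in shTDP43 and 52.2% ± 2.19 in shNC at 501 to 1000 bp. It was 8.35% ± 1.49 in shTDP43 and 9.25% ± 0.535 in shNC beyond 20 kb. In divergent pairs it was 59.6% ± 8.46 in shTDP43 and 66.0% ± 0.909 in shNC at 501 to 1000 bp. It was lower right past the limit, with 51.4% ± 7.16 in shTDP43 and 57.4% ± 3.24 in shNC at 1001 to 2000 bp, and lower again at 2001 to 5000 bp, with 36.4% ± 7.24 in shTDP43 and 42.1% ± 2.81 in shNC. Beyond 20 kb the divergent flanks still had 36.3% ± 4.94 in shTDP43 and 40.8% ± 2.64 in shNC. Tandem flanks went lower with length as well, apart from the 27 pairs under 101 bp. Those had 52.3% ± 5.28 in shTDP43 and 55.3% ± 2.08 in shNC, below the 76.5% ± 1.26 in shTDP43 and 79.2% ± 2.42 in shNC of the 56 pairs at 101 to 250 bp (SD, n = 3 throughout). Close to the limit, the covered share was taken over the whole region, the gap plus 500 bp into each gene, and not over the flanks alone. Just inside the limit, 115 gaps of 901 to 1000 bp had 49.9%, 56.9% and 57.8% in shTDP43 and 58.4%, 57.4% and 56.2% in shNC. Just outside it, 76 gaps of 1001 to 1100 bp had 44.4%, 51.3% and 54.8% in shTDP43 and 58.4%, 56.1% and 55.4% in shNC. Gap length was not tested apart from gene length or gene density, which moved with it: genes at gaps had a median span of 18070 bp, against 26300 bp for other coding genes. Gaps were most frequent on chromosomes 16, 19 and 17, with 16.3, 14.5 and 13.8 per 100 coding genes, and least frequent on chromosome 21, with 5.02.

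**Figure D3:**
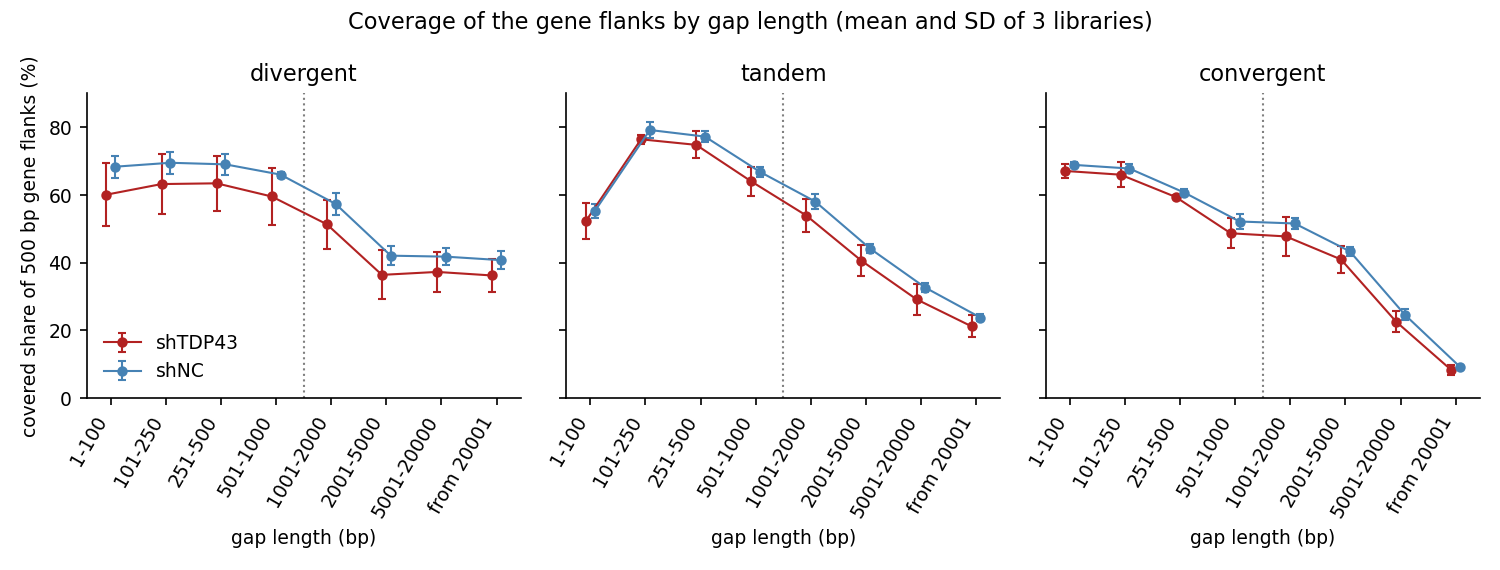
Covered share, in percent, of the 500 bp inside each of 2 neighbouring genes, by the length of the gap between them (mean and SD of 3 libraries per genotype, dotted line at the 1000 bp limit). Convergent flanks go from 67.1% in shTDP43 and 68.9% in shNC at the shortest gaps to 8.35% in shTDP43 and 9.25% in shNC at the longest, while divergent flanks level off near 36% and 41%.

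Pairs known to share a promoter were mostly covered across their whole region. Of 17 such pairs listed, 12 had a gap of this size, and 7 lay wholly under peaks in all 6 untreated libraries. These 7 were TFPT and PRPF31 (a splicing factor), HSPD1 and HSPE1, SURF1 (assembly of cytochrome c oxidase) and SURF2, NPAT (histone gene transcription) and ATM (the DNA damage kinase), PRKDC (the catalytic subunit of DNA-dependent protein kinase) and MCM4 (a replicative helicase subunit), SARS2 (mitochondrial seryl-tRNA synthetase) and MRPS12, and YIPF3 and POLR1C (a subunit of RNA polymerases I and III). TFPT and PRPF31 had all 1096 bp covered in every untreated library, and after RNase H 1006 bp in shTDP43 and 1096 bp in shNC. It was the only 1 of the 12 with a peak after RNase H.

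The other 5 pairs were covered in part. For the collagen IV genes COL4A1 and COL4A2, 239, 644 and 1126 bp of 1126 bp were covered in shTDP43 and 735, 846 and 1126 bp in shNC. For TK1 (thymidine kinase) and AFMID (kynurenine formamidase), 0, 291 and 1013 bp of 1157 bp were covered in shTDP43 and 795, 801 and 0 bp in shNC. The genotypes overlapped at both. For HARS1 and HARS2 (histidyl-tRNA synthetases), shTDP43 replicate 1 had 628 bp of 1084 bp, and the other 5 libraries had the whole region. For KBTBD4 and NDUFS3 (a complex I subunit), it had 626 bp of 1103 bp, and for GART (purine synthesis) and SON (a splicing cofactor) 1017 bp of 1144 bp, again with the other 5 libraries whole. Only the shallowest untreated library fell short at these 3.

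Gene families at gaps differed widely in coverage. The 29 regions with a gene of ribosomal protein symbol had 90.6% ± 1.98 covered in shTDP43 and 90.8% ± 1.49 in shNC, and 23 were whole in all 6 libraries. RPL35 sits between 2 gaps, and both were whole in all 6: the 1004 bp with WDR38 and the 1172 bp with ARPC5L. The gap of RPS27A and MTIF2, 741 bp long and convergent, had no peak in any of the 8 libraries. The 20 regions with a replication-dependent histone gene, which encode the core and linker histones of S phase, had 86.5% ± 7.03 in shTDP43 and 89.6% ± 2.98 in shNC. H2BC21 and H2AC20 shared a divergent gap whose 1235 bp were whole in all 6 untreated libraries, with 280 bp left after RNase H in shTDP43 and 796 bp in shNC. H3C2 and H2AC4 stood at the low end, with 0, 0 and 410 bp of 1992 bp in shTDP43 and 292, 0 and 167 bp in shNC. Histone genes are near-identical copies, so reads placed among them are uncertain.

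Other groups lay closer to the 62.7% ± 6.03 in shTDP43 and 67.4% ± 2.06 in shNC over all gaps (SD, n = 3 each). The 90 regions of RNA polymerase and RNA processing genes had 72.1% ± 7.93 in shTDP43 and 75.6% ± 2.74 in shNC. The 15 of tRNA synthetase genes had 72.5% ± 8.22 in shTDP43 and 75.6% ± 4.15 in shNC. The 82 of mitochondrial ribosome, respiratory chain and import genes had 66.9% ± 7.87 in shTDP43 and 72.9% ± 2.36 in shNC. The 37 of DNA repair genes had 68.1% ± 8.37 in shTDP43 and 74.1% ± 3.61 in shNC, the 52 of zinc finger genes 61.9% ± 4.67 in shTDP43 and 67.8% ± 3.34 in shNC, and the 20 of proteasome genes 57.8% ± 5.87 in shTDP43 and 58.1% ± 2.22 in shNC. The symbol search for keratins (KRT) met no keratin gene, only KRTCAP2 (with TRIM46) and KRTCAP3 (with NRBP1). These 2 regions had 68.8% ± 16.3 in shTDP43 and 78.2% in each shNC library. At the other extreme, all 7 regions with an olfactory receptor gene and both with a HOX gene, HOXA11 and HOXB13 among them, had no peak in any library. PCDHB9, a clustered protocadherin gene, lay between 2 gaps without a peak in shTDP43. In shNC these had 0, 422 and 0 bp (with PCDHB16) and 323, 416 and 0 bp (with PCDHB10).

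Among gaps bridged in all 6 untreated libraries, the strongest peaks lay at SNX32 and CFL1 (cofilin, which severs actin filaments), ANGPTL6 and PPAN (a ribosome biogenesis factor), STX10 and IER2 (an immediate-early gene), and on both sides of EIF4A1 (an RNA helicase of translation initiation), towards SENP3 and towards CD68. The fold over background at SNX32 and CFL1 was 134.6, 176.8 and 174.5 in shTDP43 and 157.7, 163.7 and 144.8 in shNC, as the authors' peak caller gave it. Both gaps of EIF4A1 lay under the same peak. Among the weakest bridged gaps were MRPS22 and COPB2, LRRC61 and RARRES2, LRRC40 and SRSF11, and FAM110D and C1orf232. Folds at MRPS22 and COPB2 were 4.54, 6.45 and 3.97 in shTDP43 and 4.80, 3.94 and 3.25 in shNC.

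Peak borders within gap regions sat repeatedly on cut sites of the enzymes used to fragment the DNA. In promoter windows at gap regions, 1.30% of bases lay within 10 bp of such a site. In the untreated libraries these bases held 32.7% to 47.4% of peak edges in shTDP43 and 39.9% to 47.4% in shNC. That is 10.1 to 10.5 edges per kb near a site in shTDP43 and 9.39 to 10.4 in shNC, against 0.152 to 0.285 per kb elsewhere in shTDP43 and 0.152 to 0.186 in shNC. Site by site, chromosome 8 with its 62 gap regions was left out, unlike in the densities above. Of 265 sites in 228 gap regions on the other chromosomes, 22 had an edge in all 6 untreated libraries, 104 in 1 to 5 and 139 in none, and 61 of these last lay in regions without any peak. At all 22 the edge was on the same base in the 6 libraries. It was the site's second base at 10 of them, the fifth at 11 and the fourth at the SspI site. The EcoRI, HindIII, BsrGI and XbaI enzymes cut after the first base of each strand, and SspI cuts in the middle.

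The shown windows give examples. At AGPAT1 and RNF5, 550 bp of 1296 bp were covered in each of the 6 untreated libraries, with the edge on the EcoRI site on chromosome 6 from 32178354 to 32178359. At APBA3 and MRPL54, 611 bp of 1989 bp were covered in each, with the edge on the HindIII site on chromosome 19 from 3762570 to 3762575. At ATPAF1 and TEX38, 703 bp of 1328 bp were covered in each, with the edge on the HindIII site on chromosome 1 from 46668756 to 46668761. Over all gap regions, 223 were partly covered in all 6 libraries, and 67 of these (30.0%) had exactly the same covered length in each. Divergent promoters also differed in cut sites by their state. A site was present in 3.43% of the 496 promoter windows at divergent gaps that were whole in all 6 libraries, against 21.5% of the 200 at divergent gaps never covered. The states between were close to the latter, with 16.8% at a peak in 1 to 5 libraries and 19.6% at a peak in all 6 but not whole. The never covered ones had a median GC content of 62.2% and 22 CpG, and the whole ones 67.0% and 30 CpG. Covered lengths are read here as covered sequence only, not as hybrid lengths.

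Between genotypes, coverage of gap regions as a whole did not pass a test. The mean covered share was 62.7% ± 6.03 in shTDP43 and 67.4% ± 2.06 in shNC (SD, n = 3 each), a difference of −4.72 points (exact permutation test, 2-sided, p = 0.3, where 0.1 is the smallest possible). The share bridged differed by −5.54 points (exact permutation p = 0.3). Divergent gaps differed by −6.76, tandem by −2.64 and convergent by −2.22 points (exact permutation tests, adjusted p = 0.5 each). Without the shallow shTDP43 replicate 1, the difference over all gaps was −1.24 points. It was 4.58 points, again not past the test, when peaks touching RNase H peaks were left out, and the RNase H list used for shNC was the longer one.

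Region by region, 827 gap regions had a mean of at least 150 bp covered and were not whole in all 6 libraries, and were tested in 1 fit with the other gene ends (10782 regions in all, limma on log2 of covered bp plus 100). In shTDP43, 9 gap regions were called lower (1.09%) and 0 higher at an adjusted p under 0.05. The background over all tested regions was 1.34% lower and 0.158% higher, so the share of gaps called lower lay near it. At an unadjusted p under 0.05, 42 were lower and 6 higher. The median log2 change was −0.17 over gap regions and −0.16 over the others. By orientation, 2 of 383 divergent, 2 of 147 tandem and 1 of 84 convergent gaps tested were called. None of the 9 was called when covered lengths were scaled to each library's total, which moves the median over gaps to −9e-04. Scaling leaves 0 bp at 0, so at the 4 regions without a peak in shTDP43 only the shNC values could move. The log2 changes there moved little, as at TUBE1 and FAM229B (−2.37 scaled, −2.40 unscaled), while that of CBL and MCAM became −0.64. The size of such a change depended on other settings. Over the 13 alternatives that kept the call at TUBE1 and FAM229B, it ran from −3.254 to −0.8913.

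At 4 of the 9, no shTDP43 library had a peak. TUBE1 (epsilon-tubulin, a centriole protein) and FAM229B had 0 bp of 1108 bp in each shTDP43 library and 391, 472 and 421 bp in shNC (limma, adjusted p = 0.003936). CCND3 (cyclin D3) and TAF8 (a TFIID subunit) had 0 bp of 1488 bp in each shTDP43 library and 834, 968 and 578 bp in shNC (limma, adjusted p = 0.007538). ITPKA (an inositol trisphosphate kinase) and LTK (a receptor tyrosine kinase related to ALK) had 0 bp of 1085 bp in each shTDP43 library and 579, 376 and 633 bp in shNC (limma, adjusted p = 0.0134). TIMELESS (a replication fork protein) and MIP (a lens aquaporin) had 0 bp of 1075 bp in each shTDP43 library and 742, 365 and 433 bp in shNC (limma, adjusted p = 0.02557). In these the genotypes did not overlap, but the shNC peaks were weak, with folds of 2.4 to 5.13 over background.

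At the other 5, shTDP43 peaks covered less of the region. CBL (a ubiquitin ligase for receptor tyrosine kinases) and MCAM (a cell adhesion molecule) had 485 bp of 1379 bp in each shTDP43 library and 948, 919 and 907 bp in shNC, a log2 change of −0.81 ± 0.04 (SE, limma, adjusted p = 0.003445). HOMER2 (a postsynaptic scaffold) and RAMAC (which activates the mRNA cap methyltransferase) had 497, 578 and 636 bp in shTDP43 and all 1052 bp in each shNC library, a log2 change of −0.79 ± 0.09 (limma, adjusted p = 0.03134). VRK3 (a kinase) and ZNF473 (a zinc finger protein of histone mRNA processing) had 612, 863 and 749 bp in shTDP43 and all 1632 bp in each shNC library, a log2 change of −1.05 ± 0.12 (limma, adjusted p = 0.03422). KCNAB2 (a potassium channel subunit) and CHD5 (a chromatin remodeller of neurons) had 1223, 1294 and 1307 bp in shTDP43 and 1606, 1606 and 1584 bp in shNC, a log2 change of −0.31 ± 0.03 (limma, adjusted p = 0.01789). LENG1 and TMC4 differed least, with 1317, 1308 and 1308 bp in shTDP43 and 1386 bp in each shNC library (log2 change −0.07 ± 0.01, limma, adjusted p = 0.0182).

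The calls for CBL and MCAM, TUBE1 and FAM229B, and CCND3 and TAF8 held with each library left out in turn. The other 6 were lost without at least 1 library. ITPKA and LTK lost the call without shNC replicate 1 (adjusted p = 0.0541). HOMER2 and RAMAC lost it without shTDP43 replicate 2 (adjusted p = 0.08145), and VRK3 and ZNF473 without shTDP43 replicate 3 (adjusted p = 0.07773). Both also lost it without any of the 3 shNC libraries, as did KCNAB2 and CHD5 and LENG1 and TMC4 (limma, adjusted p from 0.05539 to 0.1538 over these). TIMELESS and MIP kept it only without shNC replicate 1. Other peak thresholds also ended calls. CCND3 and TAF8 lost it when only peaks with a −log10 q of at least 5 were kept (limma, adjusted p = 0.682) and with an equal number of peaks per library (0.697), and ITPKA and LTK with an equal number of peaks (0.116). HOMER2 and RAMAC lost it at a −log10 q of at least 5 (0.545), KCNAB2 and CHD5 at 5 (0.682) and 10 (0.143), and VRK3 and ZNF473 at 10 (0.656). TUBE1 and FAM229B, ITPKA and LTK, and TIMELESS and MIP fell under the minimum of 150 bp at 5, as did TIMELESS and MIP with an equal number of peaks, and were not tested there. The number of gap regions called lower was 19 without shTDP43 replicate 2 and 28 without shTDP43 replicate 3, and ran from 6 to 9 without any of the others.

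**Figure D4:**
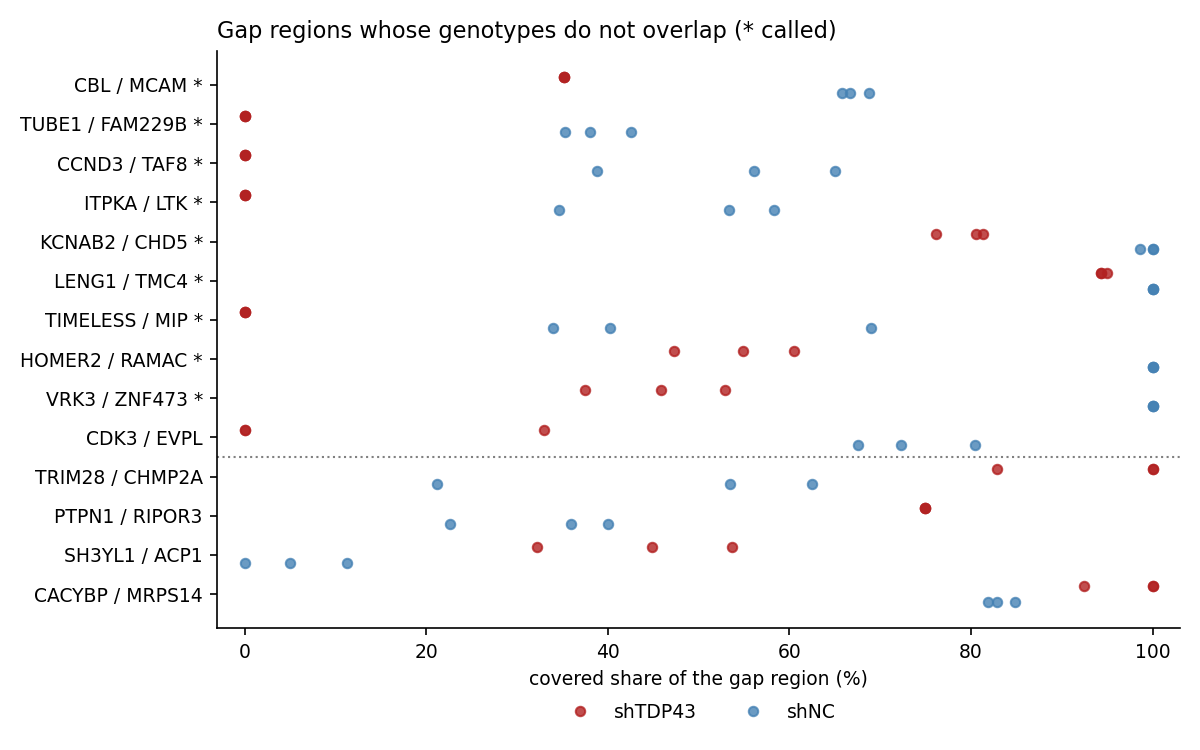
Covered share of gap regions in percent, with the 3 shTDP43 libraries and the 3 shNC libraries as points, for the regions called lower (asterisks), 1 more region lower in every shTDP43 library, and 4 regions higher in every shTDP43 library (under the dotted line). None of the 4 higher ones passed the test.

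No gap region was called higher in shTDP43, although 9 of the 827 tested (1.09%, background 0.983%) had every shTDP43 library above every shNC library. In the opposite direction 62 (7.50%, background 8.36%) did not overlap. PTPN1 (a tyrosine phosphatase) and RIPOR3, a convergent pair, had 1399 bp of 1866 bp in each shTDP43 library and 421, 747 and 671 bp in shNC, a log2 change of 1.10 ± 0.20 that did not pass (limma, adjusted p = 0.1712). SH3YL1 and ACP1 (a low molecular weight tyrosine phosphatase) had 361, 602 and 504 bp of 1122 bp in shTDP43 and 56, 0 and 127 bp in shNC, a log2 change of 1.93 ± 0.37 (limma, adjusted p = 0.2063). It passed at a −log10 q of at least 5 (limma, adjusted p = 0.0401), with an equal number of peaks (0.0404) and without RNase H-touching peaks (0.0301). CACYBP and MRPS14 (a mitochondrial ribosome subunit) had 1930, 1785 and 1930 bp in shTDP43 and 1600, 1638 and 1580 bp in shNC, a log2 change of 0.22 ± 0.04 (limma, adjusted p = 0.127). It passed without shTDP43 replicate 2 (limma, adjusted p = 0.0218), PTPN1 and RIPOR3 without shNC replicate 1 (0.0161), and both without RNase H-touching peaks (0.0195 and 0.0276 in that order). TRIM28 (a transcriptional corepressor) and CHMP2A (an ESCRT-III subunit) had 1850, 1850 and 1533 bp in shTDP43 and 1156, 989 and 392 bp in shNC (limma, adjusted p = 0.7008). They also included PSME2 and RNF31, ARR3 and RAB41, TBX6 and YPEL3, and SLC22A13 and SLC22A14, with adjusted p from 0.6029 to 0.7008 (limma). Among regions lower in every shTDP43 library but not called, CDK3 and EVPL had the largest difference of means, with 0, 0 and 609 bp in shTDP43 and 1334, 1486 and 1248 bp in shNC (limma, adjusted p = 0.611, and 0.00325 without shTDP43 replicate 3).

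Few gap regions had a peak after RNase H. In the treated libraries, 98 of 2076 had one in shTDP43 (4.72%, 95% Wilson interval 3.89 to 5.72) and 200 in shNC (9.63%, 8.44 to 11.0), and 72 had one in both. In untreated libraries 69.1% to 77.3% of gap regions had a peak in shTDP43 and 76.1% to 79.1% in shNC. Relative depth was also lower after RNase H, at 0.991 in shTDP43 and 0.936 in shNC. Untreated libraries had 1.05 to 1.94 in shTDP43 and 1.62 to 2.01 in shNC. How far depth entered the lower shares was not tested. Other gene ends had an RNase H peak at 1.81% in shTDP43 and 3.59% in shNC. Of the 226 gap regions with a peak in either treated library, 223 had a peak in all 6 untreated libraries and 3 in none. Peaks after RNase H were most frequent at convergent gaps, at 8.16% (5.71 to 11.6) in shTDP43 and 16.0% (12.5 to 20.3) in shNC. They were less frequent at tandem gaps, at 6.46% (4.41 to 9.36) in shTDP43 and 11.4% (8.58 to 14.9) in shNC, and least at divergent gaps, at 1.95% (1.19 to 3.19) in shTDP43 and 4.42% (3.18 to 6.12) in shNC. The intervals cover counting error only, and with 1 treated library per genotype neither the genotypes nor the treatment could be tested.

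**Figure D5:**
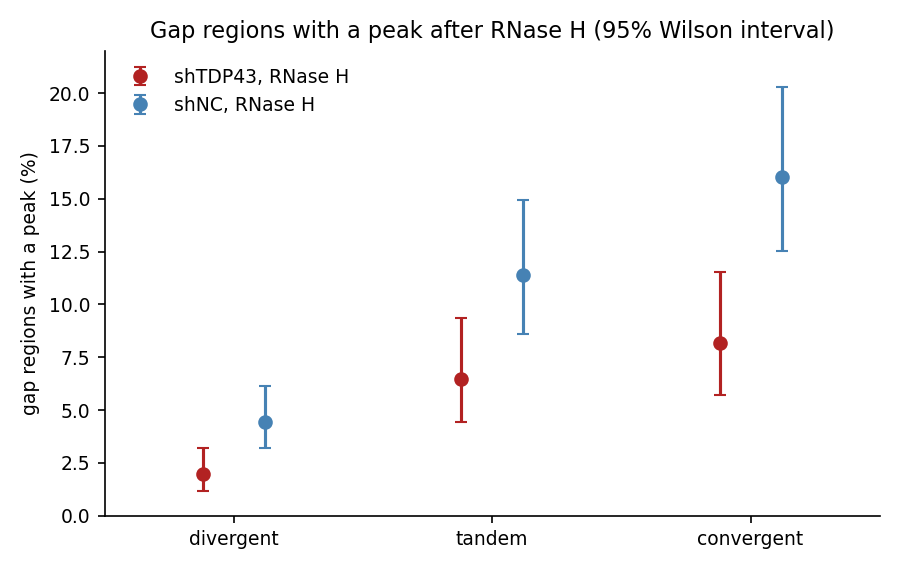
Share of divergent, tandem and convergent gap regions with a peak after RNase H, in percent, for the 1 treated library of each genotype, with 95% Wilson intervals. Both genotypes have the same order, from 1.95% in shTDP43 and 4.42% in shNC at divergent gaps to 8.16% in shTDP43 and 16.0% in shNC at convergent gaps.

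After RNase H, 5 gap regions stayed wholly covered in both genotypes. These were CDT1 (a replication licensing factor) and APRT (adenine salvage), DNLZ and CARD9 (an adaptor of innate immunity), FKBP2 and PPP1R14B, NFIX (a transcription factor) and LYL1, and RTEL1 (a DNA helicase that maintains telomeres) and TNFRSF6B. For CDT1 and APRT all 1080 bp lay under peaks in each of the 8 libraries, and untreated folds were 72.5, 123.6 and 127.5 in shTDP43 and 132.1, 140.5 and 106.3 in shNC. Of the 5 pairs, 3 were convergent, 1 was tandem and 1 had no known orientation.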

How the data were processed

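Per the submitters' processing notes, reads were handled with Bowtie2 2.4.4, SAMtools and MACS2 2.2.6 on hg38, with no settings given in the sources used here. Lists are per library. For each peak the authors deposited a fold ratio over background, −log10 p and −log10 q values and a score. These were used only to rank or filter peaks within a list. Input was not analysed here.

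Gene spans came from the RefSeq GRCh38.p14 annotation and strands from its promoter table. For each region and untreated library the covered bp was computed, and 500 recounts by brute force gave 0 differences. Regions with a mean of at least 150 bp that were not whole in all 6 libraries entered a limma 3.58.1 fit in R 4.3.3 (unscaled log2 of bp plus 100, variance trend, Benjamini-Hochberg), which was checked on simulated data. The simulated noise was independent and held no ties at 0 bp or at the region length. Of the 9 regions called, 4 had no peak in any shTDP43 library and 3 were whole in all shNC libraries. The other 2 held ties as well. CBL and MCAM had 485 bp in each shTDP43 library, and KCNAB2 and CHD5 all 1606 bp in shNC replicates 1 and 2. The check covers no region with such ties, and so none of the 9. Class means were compared with exact permutation tests, 2-sided, between genotypes and with sign flips over libraries.

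Read totals are not in the lists. A relative depth came from solving pileup and background at 3000 summits per library, of which 99.4% to 99.9% were solved within 0.001 of the printed −log10 p. Calculations used Python 3.11.15 with numpy 2.4.6, pandas 2.3.3 and scipy 1.17.1. Members, lists and tests were chosen with earlier results of these data known. Regions were named by rule: up to 10 per direction, called or else without overlap between genotypes, listed shared-promoter pairs, the 5 most covered after RNase H, and the 5 strongest and 5 weakest bridged. Some regions that the rule names are not reported here.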

Additional observations from a re-analysis of the deposited data

How the results depend on the processing

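The excess of gap regions over other gene ends, and of each orientation over its own kind of gene end, kept its sign under every alternative run, although leaving out peaks that touched a peak called after RNase H brought it to 22.9 points over all gaps. With 1 library left out, exact sign-flip tests over the 5 remaining libraries cannot go below p = 0.0625. The differences then ran from 35.2 to 36.25 points for gaps against other ends, from −5.365 to −3.117 for divergent minus tandem and from 11.44 to 11.77 for tandem minus convergent. They ran from 7.113 to 8.535 for the convergent minus the divergent excess. Leaving out peaks that touched a peak called after RNase H had the strongest effect. It turned round the genotype differences in covered share (4.582 points), in bridging (3.709), at tandem gaps (9.045) and at convergent gaps (11.55), and those of divergent minus tandem (12.32) and of the excesses (−5.826). Divergent minus convergent then passed (21.6 points), and 195 gap regions were called higher and 35 lower in shTDP43. This alternative takes whole peaks, so wide ones go more often, and its 2 RNase H lists differ in length.

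The number called lower ran from 6 to 28 and the number called higher from 0 to 3 with 1 library left out. A −log10 q of at least 5, or an equal number of peaks per library, gave 1 called higher, SH3YL1 and ACP1. Scaling to the library total gave 0 called lower. The fit with the replicate number as a block also gave 0 called lower. Deviations of same-numbered libraries correlated at −0.054, 0.011 and −0.045, and those of differently numbered ones at −0.061 to 0.086. The labels do not say whether the numbers pair libraries, and such correlations cannot settle it. Calls lost under the block were therefore not read either way. Among named regions, PSME2 and RNF31 turned negative at a −log10 q of at least 5 (log2 change −1.64), and CACYBP and MRPS14 at 10 (−1.23). LENG1 and TMC4 turned positive without RNase H-touching peaks (2.52) and with scaling (0.11). No read totals are known, so a region without a peak is not a region without hybrids, and shTDP43 replicate 1 had the lowest relative depth of the untreated libraries.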
